A study of Mus musculus with 8 samples.

Results

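The axon guidance ligands and receptors described here are the 67 genes whose symbols place them among the semaphorins, plexins, ephrins, Eph receptors, Slits, Robo receptors, netrins, and the netrin receptors Dcc and Unc5, out of 23284 gene symbols counted. They were chosen by symbol alone: 20 semaphorins, 9 plexins, 5 A ephrins, 9 EphA receptors, 3 B ephrins, 5 EphB receptors, 3 Slits, 4 Robo receptors, 4 netrins, and Dcc with 4 Unc5 receptors. That made 35 ligands and 32 receptors, counting semaphorins, which can also signal as receptors, with the ligands. RNA from the microdissected peripheral retina of mice at postnatal day 12 was sequenced in 2 groups of 4 libraries. The first group, TET-MYCN, is labelled Rb-null with a TET-MYCN transgene. The alpha enhancer of Pax6 drives Cre, which unlocks the transactivator RTTA at Rosa26 (Rosa26LSL-RTTA). RTTA switches on TRE-MYCN when doxycycline is present. The second group, Rb-null, carries the same Cre with floxed Rb1 (Rblox/lox) and no MYCN transgene in its labels. For the TET-MYCN animals the series text leaves the floxed Rb1 allele unnamed. No doxycycline is stated in the labels used here, so the labels do not establish that MYCN was switched on. Cells that the Cre did not reach may be part of either sample. The comparison asks what the TET-MYCN transgene adds to loss of Rb1 in this tissue. Whether the 4 libraries of a group stem from 4 different mice is not labelled, and the p-values therefore cover only library to library spread, part of which may be technical.

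Guidance molecules steer growing axons and dendrites, and in the retina many stay on after axons have reached their targets, in the layering of synapses and in blood vessels. Semaphorins signal through plexins, alone or with neuropilin co-receptors, and in the retina they keep neurites within their proper layers. Ephrins are bound to the cell surface and signal to Eph receptors on neighbouring cells: the A class follows the nasal to temporal axis of the retina and the B class the dorsal to ventral axis. Slits repel axons through Robo receptors, and netrin 1 attracts ganglion cell axons to the optic disc through Dcc, while Unc5 receptors turn the netrin response to repulsion.

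Gene counts were 16166000, 22873979, 17861514 and 19773139 in TET-MYCN libraries 1 to 4, and 20007977, 16101383, 15555765 and 14872131 in Rb-null libraries 1 to 4. Mouse Mycn had a log2 fold change of 0.07 ± 0.28 (SE; TET-MYCN over Rb-null, adjusted p = 0.934 with edgeR's quasi-likelihood test) and Rb1 one of -0.06 ± 0.14 (adjusted p = 0.883), so direction rests on the labels. Transgene reads need not be counted at mouse Mycn, and deletion between lox sites can spare most Rb1 exons. Of the 15106 genes tested, 9 passed an adjusted p of 0.05. The library TET-MYCN 3 stood apart in a way that touches the results below. Its genes with over 8 kb of exon had a median log2 CPM (gene counts scaled to a common library size with TMM factors) 0.27 below the mean of the 8 libraries (a deviation of -0.27), against deviations of -0.09 to 0.11 in the other 7 libraries. Its genes under 2 kb had a deviation of 0.33, against -0.11 to 0.10. For genes of 4 to 8 kb the deviation was -0.07. The guidance genes tested had a median exon length of 6.85 kb, against 4.46 kb over the genes tested with a known length. Their median deviation in TET-MYCN 3 was -0.29, and it was the lowest library of its group for 47 of 64 of them. That count was not made over all genes, and the part of exon length in it was not tested. Markers of rods and Müller glia were present in every library: 6 rod markers summed to 2160 to 5175 CPM in TET-MYCN and 3041 to 14445.5 CPM in Rb-null libraries, with a median log2 fold change of -1.24. Markers of ganglion cells, whose axons many of these molecules guide, summed to 303 to 449 CPM in TET-MYCN and 254 to 567 CPM in Rb-null libraries, and 7 of the 8 had log2 fold changes below 0 (median -0.48, 3 lower at an unadjusted p under 0.05). The median was -0.72 for 6 Müller glia markers, of which 4 were lower at that p, -1.20 for 6 bipolar cell markers, 4 of them lower, and 1.04 for 6 progenitor markers, 5 of them higher. The part of cell makeup in the results was not tested. The guidance genes together took 0.382%, 0.412%, 0.288% and 0.423% of gene counts in TET-MYCN libraries 1 to 4, and 0.377%, 0.401%, 0.327% and 0.316% in Rb-null libraries 1 to 4.

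**Figure D1:**
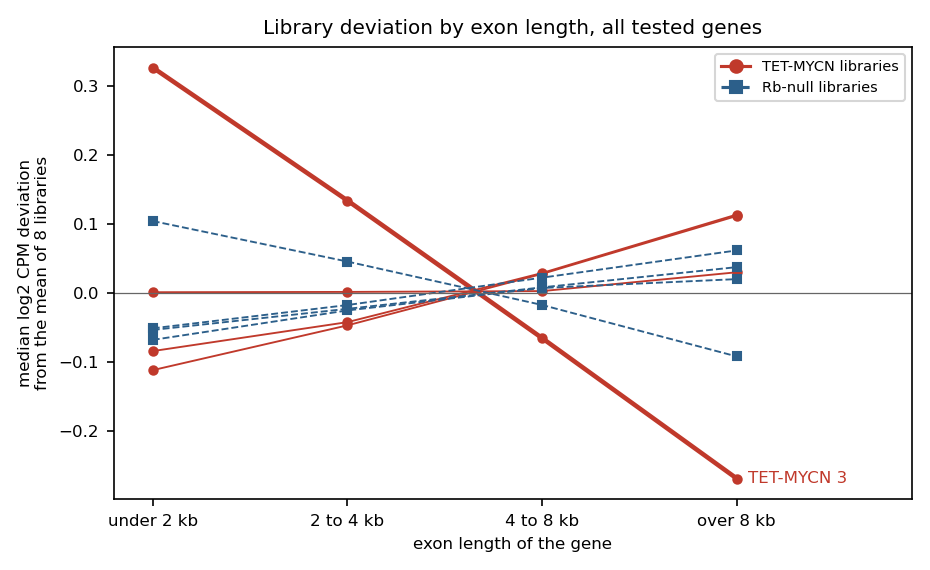
Median deviation of log2 CPM from the mean of 8 libraries (vertical axis) in 4 classes of exon length (horizontal axis), over all tested genes with a known length. TET-MYCN libraries are solid red lines and Rb-null libraries dashed blue lines. TET-MYCN 3, the thick line, goes from 0.33 in genes under 2 kb to -0.27 in genes over 8 kb.

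Levels of different genes were compared in CPM per kb of exon, with the length taken over all annotated exons of a gene. That length can exceed the length of the transcripts present, so ranks on this scale are approximate. On it, 15 guidance genes averaged over 10 and 10 averaged under 1 across the 8 libraries. The highest level was that of Plxnb2, the plexin B2 receptor of class 4 semaphorins, at 45.6 CPM per kb in TET-MYCN and 43.7 in Rb-null retina. Epha8, an EphA receptor, followed at 36.7 and 34.3 CPM per kb, and Plxnb1, a receptor of Sema4d, at 26.5 and 27.0 CPM per kb. The highest semaphorin was Sema3f, a secreted ligand of neuropilin 2 and A plexins, at 21.9 CPM per kb in TET-MYCN and 27.2 in Rb-null retina. Efnb3 led the B ephrins at 21.9 and 19.8 CPM per kb, Efna2 the A ephrins at 14.2 and 12.7, and Ephb6, an EphB receptor without kinase activity, the EphB receptors at 9.49 and 7.86. Unc5a led its family at 18.8 and 16.3 CPM per kb, Robo3, which in mammals does not bind Slits, led the Robo receptors at 16.8 and 12.0, and Slit1 the Slits at 13.02 and 6.39. The lead of Slit1 depends on the division by length, which is 25.4 kb for Slit2. Before it, Slit2 had 79.0 CPM in TET-MYCN and 97.0 in Rb-null retina, and Slit1 77.1 and 37.8 CPM. Netrins were low, led by Ntn4, a netrin of basement membranes, at 5.82 CPM per kb in TET-MYCN and 4.93 in Rb-null retina, while Ntn1 had 0.149 and 0.0973 CPM per kb. The 3 genes with too few reads to be tested were Epha1 at 0.133 and 0.121 CPM per kb, Plxnb3 at 0.0798 and 0.0446, and Ntn5 at 0.172 and 0.0224. Ntn5 had 10, 2, 2 and 14 counts in TET-MYCN libraries 1 to 4 and 0, 0, 2 and 1 in Rb-null libraries 1 to 4, and part of its exons overlap the gene Sec1 on the other strand.

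**Figure D2:**
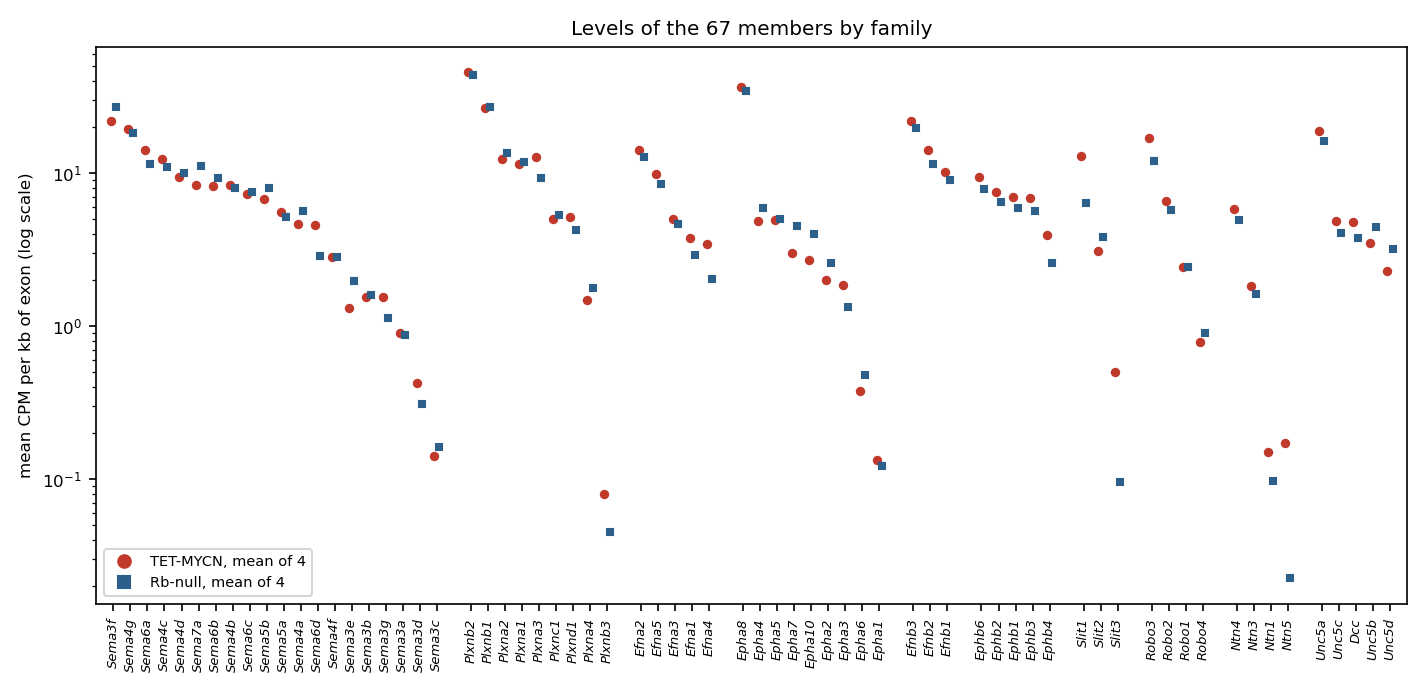
Mean CPM per kb of exon (logarithmic vertical axis) of the 67 genes, ordered within each family by their level. Red circles are means of 4 TET-MYCN libraries and blue squares means of 4 Rb-null libraries. The pairs lie close for most genes, from Plxnb2 at 45.6 and 43.7 downward, and Slit3 and Ntn5 show the widest gaps.

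MYCN binds DNA with its partner MAX at the E-box CACGTG, so the promoters of the guidance genes were searched for those letters in the 300 bases from 250 before to 50 after the start of transcription, as given by RefSeq for build GRCm38.p6. The motif reads the same on both strands. A promoter was found for 57 of the 67 genes, 73 promoters in all, and 5 of these (6.85%) held the motif, against 7.15% of all 32851 promoters in the table. The 5 belonged to Epha8, Robo2, Sema3e, Sema4b and Sema6d. Of these the promoters of Epha8, the highest EphA receptor, of Robo2, a main Slit receptor, and of Sema3e, which had an unadjusted p under 0.05, are shown 5′ to 3′ with the E-box in capitals.
Epha8, chr4:136956767-136957066, minus strand: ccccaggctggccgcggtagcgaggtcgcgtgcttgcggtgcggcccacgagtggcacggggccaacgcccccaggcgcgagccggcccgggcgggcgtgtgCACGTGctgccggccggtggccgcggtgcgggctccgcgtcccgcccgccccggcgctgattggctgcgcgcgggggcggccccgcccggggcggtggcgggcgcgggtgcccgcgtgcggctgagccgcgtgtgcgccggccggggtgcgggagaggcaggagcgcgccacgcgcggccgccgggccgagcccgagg
Robo2, chr16:75447244-75447543, minus strand: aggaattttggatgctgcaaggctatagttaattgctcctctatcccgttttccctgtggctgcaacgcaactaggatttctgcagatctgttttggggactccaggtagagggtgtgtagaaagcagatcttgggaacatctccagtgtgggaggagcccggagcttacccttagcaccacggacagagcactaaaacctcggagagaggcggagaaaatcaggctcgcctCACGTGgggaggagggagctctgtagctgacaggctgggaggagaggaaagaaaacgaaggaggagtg
Sema3e, chr5:14025026-14025325, plus strand: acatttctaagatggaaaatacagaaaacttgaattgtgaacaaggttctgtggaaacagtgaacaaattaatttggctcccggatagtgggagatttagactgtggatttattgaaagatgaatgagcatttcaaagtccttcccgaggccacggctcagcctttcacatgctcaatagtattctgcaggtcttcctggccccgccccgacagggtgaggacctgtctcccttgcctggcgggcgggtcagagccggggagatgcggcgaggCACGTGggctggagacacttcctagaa
A match is a description of these letters and says nothing of binding. The 3 genes had log2 fold changes of 0.10 ± 0.27, 0.20 ± 0.17 and -0.59 ± 0.18.

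No guidance gene passed the adjusted threshold in either direction with edgeR's quasi-likelihood test, where 0.0596% of all genes tested did (0.053% as higher and 0.00662% as lower). Of the 64 tested, 13 (20.3%) had an unadjusted p under 0.05, against 15.8% of all genes, and the smallest was 0.00207, for Epha7 (adjusted p = 0.158). Of these, 6 stood higher in TET-MYCN retina and 7 lower, against 8.06% and 7.72% of all genes. DESeq2 called 2 of them, Epha7 as lower and Slit3 as higher (adjusted p = 0.0136 and 0.0122), where it called 1.37% of all genes lower and 2.14% higher, and limma-voom called 0, as of all genes. Without TET-MYCN 3, edgeR called 2, Slit1 and Slit3, both higher, as were 1.16% of all genes in that fit. The groups did not overlap for 6 of the 64 genes (9.38%), against 7.65% of all genes: TET-MYCN lay above for 2 and below for 4, as for 4.36% and 3.29% of all genes. The shares lie near those of all genes. Over the 34 ligands tested, 23 had a log2 fold change above 0 and the median was 0.13, and over the 30 receptors 16 did, with a median of 0.04. The median of all genes tested was 0.01, with 52.2% positive.

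**Figure D3:**
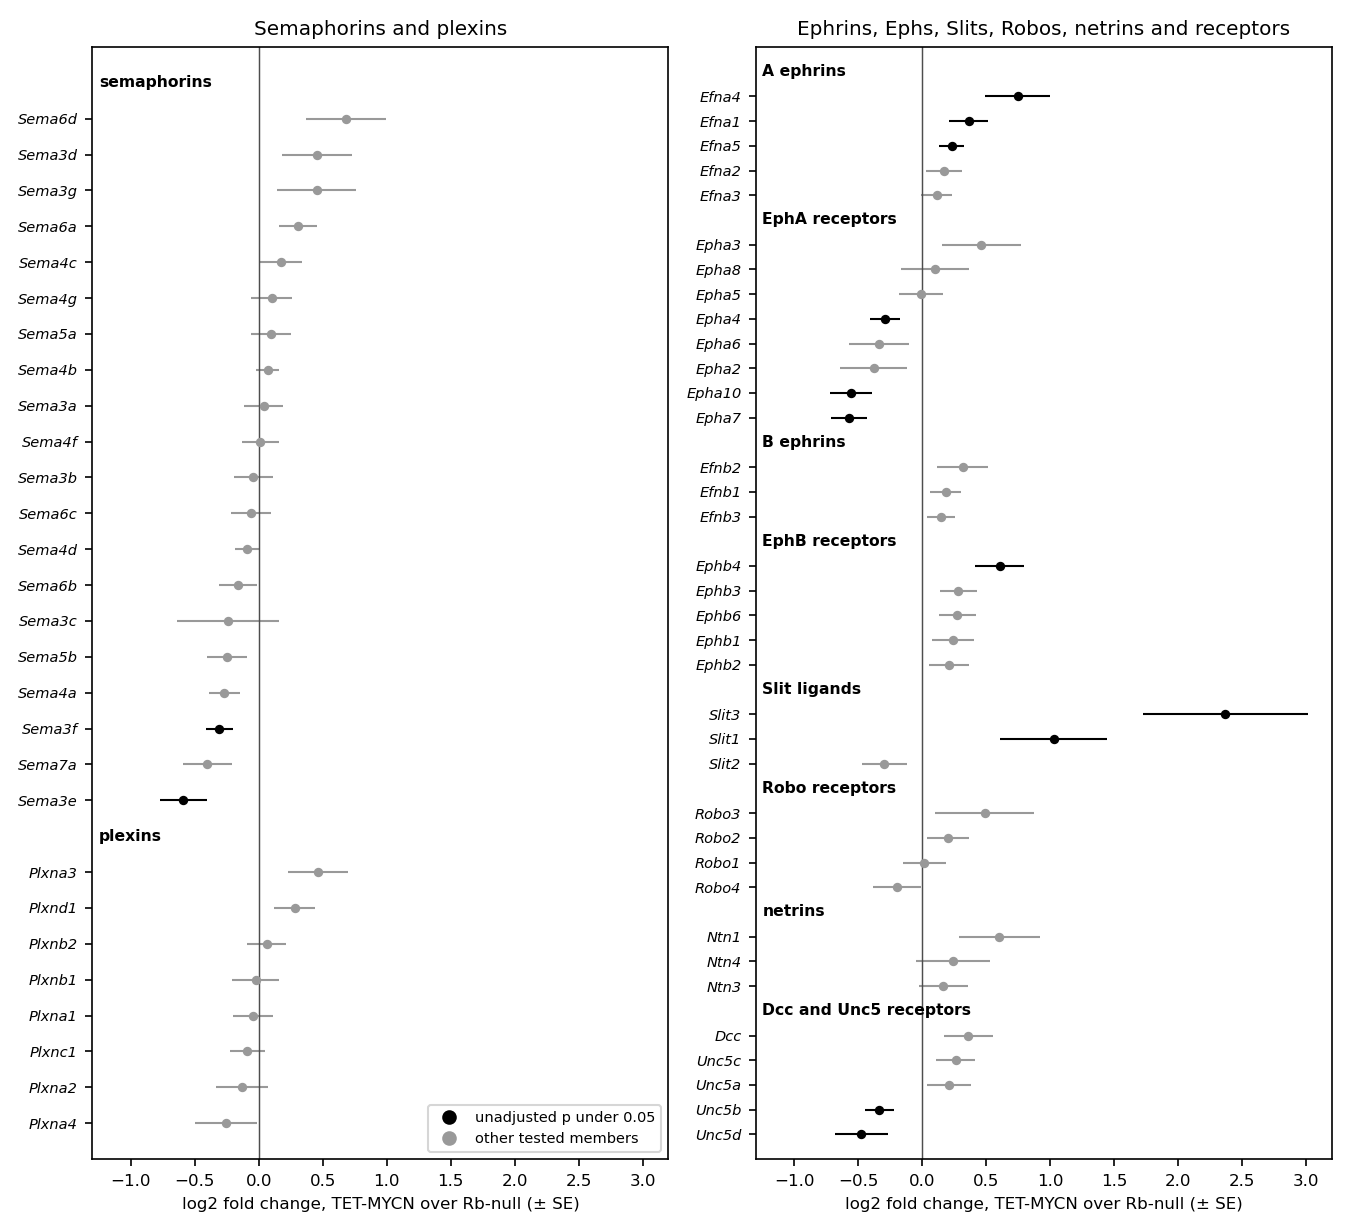
Log2 fold change of TET-MYCN over Rb-null (horizontal axis, bars ± SE) of the 64 tested genes by family. Black points have an unadjusted p under 0.05 and grey points do not. Values run from -0.59 for Sema3e to 2.37 for Slit3, and the A ephrins, B ephrins and EphB receptors all lie above 0.

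The Slits held the 2 guidance genes with a difference of over 2-fold (2.72% of all genes tested had one in either direction), and both were highest in TET-MYCN 1 and 4. Slit3 had 6.42, 1.60, 0.562 and 3.52 CPM in TET-MYCN libraries 1 to 4, against 0.509, 0.546, 0.655 and 0.605 CPM in Rb-null libraries 1 to 4. Only TET-MYCN 3 lay within the Rb-null range, and the other 3 were above it. These values rest on 104, 37, 10 and 70 counts in TET-MYCN and 10, 9, 10 and 9 counts in Rb-null libraries. The log2 fold change of Slit3 was 2.37 ± 0.64 (adjusted p = 0.168, edgeR's quasi-likelihood test). Slit1 had 109, 64.8, 22.3 and 112 CPM in the TET-MYCN libraries, against 38.2, 51.4, 33.7 and 28.0 CPM in the Rb-null libraries (1.03 ± 0.42, adjusted p = 0.281). Its TET-MYCN 3 value was the lowest of all 8 libraries, and TET-MYCN 1, 2 and 4 were above every Rb-null library. Without TET-MYCN 3 the values were 2.71 ± 0.46 for Slit3 and 1.33 ± 0.24 for Slit1, which passed (adjusted p = 0.0327 and 0.0448). Neither passed without any other single library: Slit3 was lowest without TET-MYCN 1, at 1.71 ± 0.54 (adjusted p = 0.366), and Slit1 without TET-MYCN 4, at 0.79 ± 0.44 (adjusted p = 0.558). Over all alternatives the adjusted p lay between 0.0122 and 0.556 for Slit3 and between 0.0448 and 0.610 for Slit1. Slit2, the Slit best known for guiding ganglion cell axons at the chiasm, had 79.0 ± 19.9 CPM in TET-MYCN and 97.0 ± 6.70 CPM in Rb-null retina (SD, n = 4 each). Its log2 fold change was -0.30 ± 0.18 (adjusted p = 0.441). With levels corrected for exon length it was -0.30 ± 0.08 (unadjusted p = 0.00349 and adjusted p = 0.134, edgeR's quasi-likelihood test). Without TET-MYCN 3 it was -0.13 ± 0.09 (adjusted p = 0.392).

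A list of 10 ciliary margin and pigment epithelium markers, of which Otx1, Gja1 and Tyr are examples, was highest in TET-MYCN 1 and 4, the same libraries in which Slit3 and Slit1 were highest. In TET-MYCN libraries 1 to 4 its summed level was 152, 41.7, 73.3 and 205 CPM, and it lay between 42.9 and 65.9 CPM in Rb-null libraries. All 8 of its tested markers had log2 fold changes above 0, and their median was 0.76, and 0 of the 10 were without reads in all libraries. The untested markers, Rpe65 and Msx1, had lower means in TET-MYCN than in Rb-null libraries. Rpe65 had 0.183 against 1.16 CPM, and Msx1 0.453 against 0.479 CPM. In TET-MYCN 2, where Slit1 and Slit3 were above every Rb-null library, the list's 41.7 CPM lay just under the lowest Rb-null sum of 42.9 CPM. Its markers differed there: Gja1 had 14.4 CPM, against 10.3 to 13.7 CPM in Rb-null libraries, and Pmel 1.90 CPM, against 3.10 to 9.72 CPM. Of 5 horizontal cell markers 3 had log2 fold changes above 0, the median was 1.13, and their sum was 436, 297, 230.5 and 305 CPM in TET-MYCN libraries, and 268 to 342 CPM in Rb-null libraries. Onecut2, a horizontal cell factor, had 126, 47.7, 20.7 and 70.8 CPM in the TET-MYCN libraries, and 27.7, 29.3, 20.8 and 15.2 CPM in the Rb-null libraries. Lhx1, another, had 69.0, 30.4, 8.202 and 40.8 CPM against 16.7, 22.1, 18.5 and 10.1 CPM. Both were high in TET-MYCN 1, 2 and 4 and not in TET-MYCN 3, as were Slit1, Slit3 and Sema6d. Sept4 and Calb1 of the same list went the other way, with log2 fold changes of -0.35 ± 0.12 and -0.15 ± 0.22. Sept4 was lower in every TET-MYCN library than in any Rb-null library, and TET-MYCN 3 was the highest of its group. The part of such cells in these values was not tested, and in bulk RNA more cells of a kind and more RNA per cell cannot be told apart.

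In the fit to all 8 libraries without correction for exon length, the Robo receptors did not differ beyond the spread between libraries. Robo3 had 87.9, 110.4, 87.6 and 175 CPM in the TET-MYCN libraries, against 116, 121, 32.2 and 59.3 CPM in the Rb-null libraries (0.49 ± 0.39, adjusted p = 0.576). Rb-null 1 and 2 were about as high as the TET-MYCN libraries, and Rb-null 3 and 4 were the lowest of all 8. Robo2 had 118, 143, 76.4 and 107 CPM against 99.8, 99.4, 97.4 and 90.5 CPM (0.20 ± 0.17, adjusted p = 0.595), with TET-MYCN 3 the lowest library. Without TET-MYCN 3 its log2 fold change was 0.34 ± 0.11 (adjusted p = 0.119, edgeR's quasi-likelihood test). With levels corrected for exon length it was 0.20 ± 0.09 (adjusted p = 0.267). Its unadjusted p was under 0.05 in both of these fits. Robo1, a Slit receptor of neurons, had 40.4 ± 9.28 CPM in TET-MYCN and 39.9 ± 3.75 CPM in Rb-null retina, and Robo4, a receptor of endothelial cells, 4.15 ± 0.508 and 4.75 ± 0.824 CPM.

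Among EphA receptors, 6 of 8 tested had a log2 fold change below 0 (the median was -0.31). At an unadjusted p under 0.05, 3 of the 8 were lower in TET-MYCN retina, where 7.72% of all genes tested were. The family is small and was not tested as a set. Epha7, which binds A ephrins and also limits dendrite growth, had 31.9, 31.7, 32.0 and 23.4 CPM in the TET-MYCN libraries. In the Rb-null libraries it had 41.6, 37.4, 50.1 and 47.8 CPM, so the groups did not overlap. The log2 fold change was -0.57 ± 0.14 (adjusted p = 0.158, edgeR's quasi-likelihood test), and it lay between -0.65 and -0.47 when each library was left out in turn. Epha10, an Eph receptor without kinase activity, had 17.3, 25.3, 19.0 and 16.0 CPM against 26.8, 24.3, 32.4 and 31.0 CPM (-0.56 ± 0.16, adjusted p = 0.187). TET-MYCN 2 and Rb-null 2 were the only libraries that crossed. Epha4, the receptor that binds ephrins of both classes, had 40.0, 41.9, 33.4 and 40.8 CPM against 42.9, 47.0, 55.9 and 45.1 CPM (-0.29 ± 0.12, adjusted p = 0.278), without overlap.

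The other EphA receptors had larger spreads. Epha8, the highest EphA receptor by length, had 140.3, 181, 144 and 226 CPM in the TET-MYCN libraries, against 218, 211, 98.4 and 119.6 CPM in the Rb-null libraries (0.10 ± 0.27). Rb-null 1 and 2 were high and Rb-null 3 and 4 low, as for Robo3. Epha5, a receptor of the retinotectal gradient, had 82.9 ± 19.1 CPM in TET-MYCN and 83.4 ± 12.7 CPM in Rb-null retina. Epha3 had 22.2, 14.1, 6.74 and 20.9 CPM against 12.2, 12.0, 12.4 and 9.82 CPM (0.46 ± 0.31), with TET-MYCN 3 below and the other 3 above all Rb-null libraries. Epha6 had 1.99 ± 0.516 and 2.52 ± 0.274 CPM. Epha2, an Eph receptor that the lens also uses, had 9.30 ± 2.10 CPM in TET-MYCN and 12.1 ± 4.23 CPM in Rb-null retina, and its highest value, 17.5 CPM, was in Rb-null 2. The summed level of 8 lens markers was 8.995 to 43.65 CPM in TET-MYCN libraries and 15.8 to 438 CPM in Rb-null libraries, with 235 CPM in Rb-null 2 and 438 CPM in Rb-null 3, where Epha2 had 7.20 CPM. Their part in the Epha2 values was not tested.

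The A ephrins, ligands of these receptors, all had positive log2 fold changes, 5 of 5 with a median of 0.23. Efna4 had 4.94, 4.84, 4.61 and 7.499 CPM in the TET-MYCN libraries, against 3.41, 4.31, 2.16 and 3.16 CPM in the Rb-null libraries (0.74 ± 0.25, adjusted p = 0.222, edgeR's quasi-likelihood test). The groups did not overlap, and TET-MYCN 4 was well above the rest. About 10.5% of the Efna4 exons overlap an antisense transcript, 4731419I09Rik, and the use of strand in counting is not given. Efna1 had 6.73, 6.66, 6.91 and 7.30 CPM against 5.60, 5.40, 4.45 and 5.99 CPM (0.36 ± 0.15, adjusted p = 0.293), again without overlap. Efna5, a main ligand of the tectal gradient, had 40.6, 41.8, 36.4 and 41.1 CPM against 33.5, 36.7, 34.7 and 31.6 CPM (0.23 ± 0.09, adjusted p = 0.290), where TET-MYCN 3 lay just under Rb-null 2. Efna2 and Efna3 had 30.3 ± 4.21 and 12.1 ± 1.04 CPM in TET-MYCN, against 27.0 ± 3.89 and 11.2 ± 0.573 CPM in Rb-null retina, within the spread between libraries. Per kb, the summed level of the 5 A ephrins was 32.8, 36.6, 37.3 and 38.6 CPM per kb in the TET-MYCN libraries, against 30.5, 33.8, 27.6 and 31.1 CPM per kb in the Rb-null libraries. Only TET-MYCN 1 lay within the Rb-null range.

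All 5 EphB receptors and all 3 B ephrins had positive log2 fold changes, with medians of 0.27 and 0.18. Ephb4, the Eph receptor of venous endothelial cells, had 17.8, 15.8, 14.3 and 24.7 CPM in the TET-MYCN libraries, against 11.7, 14.6, 10.7 and 10.7 CPM in the Rb-null libraries. TET-MYCN 3 lay just under Rb-null 2, and the log2 fold change was 0.61 ± 0.19 (adjusted p = 0.202, edgeR's quasi-likelihood test). Efnb2, its partner and the ephrin of arteries and of the dorsal retina, had 114, 119, 66.9 and 88.1 CPM against 96.7, 85.1, 60.5 and 69.6 CPM (0.31 ± 0.20, adjusted p = 0.477). Here the groups overlapped widely. The summed level of 8 endothelial markers was 361 to 509 CPM in TET-MYCN and 450 to 525 CPM in Rb-null libraries, and 0 of the 8 had a log2 fold change above 0, and the median was -0.32.

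Ephb3 had 39.0, 48.1, 36.5 and 57.6 CPM in the TET-MYCN libraries, against 36.9, 36.5, 39.0 and 36.8 CPM in the Rb-null libraries (0.28 ± 0.14, adjusted p = 0.368). TET-MYCN 2 and 4 were high, and the other 2 lay about the Rb-null range. Ephb6, Ephb1 and Ephb2, the last a receptor graded towards the ventral retina, had 35.8 ± 5.97, 48.7 ± 10.3 and 94.5 ± 17.2 CPM in TET-MYCN retina. In Rb-null retina they had 29.7 ± 3.56, 41.3 ± 6.52 and 81.6 ± 13.1 CPM, and none of the 3 had an unadjusted p under 0.05. Efnb1 had 33.9, 40.7, 30.8 and 34.9 CPM against 33.5, 32.5, 26.4 and 31.2 CPM (0.18 ± 0.12, adjusted p = 0.489), and Efnb3 69.7 ± 4.94 against 63.0 ± 7.79 CPM.

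Semaphorins had 10 positive and 10 negative log2 fold changes, with a median of -0.01, and their summed level was 140.0 ± 12.96 CPM per kb in TET-MYCN and 144 ± 6.70 CPM per kb in Rb-null retina. Both with an unadjusted p under 0.05 were of class 3, the secreted semaphorins, and were lower in TET-MYCN retina. They made up 10% of the semaphorins, near the 7.72% of all genes tested that were lower at that p. Sema3e, which repels vessels through plexin D1 without a neuropilin, had 11.3, 15.8, 11.9 and 9.81 CPM in the TET-MYCN libraries, against 15.5, 18.03, 23.1 and 16.9 CPM in the Rb-null libraries. TET-MYCN 2 lay just above Rb-null 1, and the log2 fold change was -0.59 ± 0.18 (adjusted p = 0.199, edgeR's quasi-likelihood test). Sema3f had 107, 113, 123 and 113 CPM against 139.6, 126, 165 and 135 CPM (-0.31 ± 0.10, adjusted p = 0.223), without overlap between the groups. Its TET-MYCN 3 value was the highest of its group.

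The remaining class 3 semaphorins were low, and none had an unadjusted p under 0.05 in the fit to all 8 libraries. Sema3a, the collapsing factor of growth cones, had 12.4 ± 1.78 CPM in TET-MYCN and 12.1 ± 1.499 CPM in Rb-null retina. Sema3b had 7.38 ± 0.799 and 7.60 ± 0.756 CPM, Sema3c 1.01 ± 0.566 and 1.16 ± 0.297 CPM, Sema3d 3.65 ± 1.24 and 2.67 ± 0.452 CPM, and Sema3g 7.02 ± 3.01 and 5.12 ± 1.11 CPM. Without TET-MYCN 3, Sema3d and Sema3g had an unadjusted p under 0.05. Their log2 fold changes were then 0.59 ± 0.26 and 0.66 ± 0.25 (adjusted p = 0.200 and 0.161, edgeR's quasi-likelihood test). Of the 6 class 4 semaphorins, which are membrane ligands mainly of B plexins, 0 had an unadjusted p under 0.05. Sema4a, a semaphorin that photoreceptors need from the pigment epithelium, had 21.0, 25.2, 26.6 and 28.0 CPM in the TET-MYCN libraries, against 28.5, 32.7, 27.6 and 32.8 CPM in the Rb-null libraries (-0.27 ± 0.12, adjusted p = 0.319). Sema4b, Sema4c, Sema4d, Sema4f and Sema4g had log2 fold changes between -0.09 and 0.18, and the level of Sema4b varied little, at 47.1 ± 3.75 and 44.9 ± 0.804 CPM.

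Classes 5 to 7 hold the semaphorins best known for layering the retina. Sema5a and Sema5b, which confine neurites to the inner plexiform layer through plexins A1 and A3, had 104 ± 17.9 and 47.6 ± 9.96 CPM in TET-MYCN, against 96.9 ± 16.6 and 56.6 ± 6.32 CPM in Rb-null retina. Sema6d had 81.8, 38.8, 24.0 and 49.0 CPM in the TET-MYCN libraries, against 34.5, 33.6, 27.5 and 25.0 CPM in the Rb-null libraries (0.68 ± 0.31, adjusted p = 0.321). TET-MYCN 3 was the lowest of all 8, and the other 3 were above all Rb-null libraries, as for Slit1. Sema6a, which acts with plexins A2 and A4 in the inner plexiform layer, had 135, 132, 90.4 and 143 CPM against 111, 110.2, 95.6 and 88.0 CPM (0.31 ± 0.15, adjusted p = 0.351), with TET-MYCN 3 again among the Rb-null values. Sema6b and Sema6c had 32.7 ± 6.33 and 43.1 ± 10.7 CPM in TET-MYCN, against 36.7 ± 3.85 and 44.9 ± 3.62 CPM in Rb-null retina. Sema7a, a lipid-anchored semaphorin that binds plexin C1 and integrins, had 25.1, 37.1, 28.8 and 19.6 CPM against 44.9, 32.4, 35.6 and 33.5 CPM (-0.40 ± 0.19, adjusted p = 0.337).

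The plexins, the receptors of semaphorins, had a median log2 fold change of -0.04 over 8 tested genes, and none had an unadjusted p under 0.05. Plxna3 had 108, 95.6, 62.0 and 133 CPM in the TET-MYCN libraries, against 76.3, 95.0, 53.9 and 65.2 CPM in the Rb-null libraries (0.46 ± 0.23, adjusted p = 0.369). Plxnd1, the receptor of Sema3e in vessels, had 39.9, 37.1, 27.4 and 45.3 CPM against 32.1, 34.1, 31.3 and 25.6 CPM (0.28 ± 0.16, adjusted p = 0.415). For both genes TET-MYCN 3 was the lowest of its group. Plxna1, Plxna2 and Plxna4, the other A plexins, had log2 fold changes of -0.05 ± 0.16, -0.13 ± 0.21 and -0.26 ± 0.24. Plxnb1, Plxnb2 and Plxnc1, the last the receptor of Sema7a, had -0.02 ± 0.18, 0.06 ± 0.16 and -0.09 ± 0.14.

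Among netrin receptors, 2 of the 4 Unc5 genes had an unadjusted p under 0.05, and both were lower in TET-MYCN retina. Of all genes tested, 7.72% were lower at that p, and so small a family was not tested as a set. Unc5b, also a receptor of vessels, had 21.4, 22.3, 18.8 and 25.0 CPM in the TET-MYCN libraries, against 27.1, 28.9, 27.8 and 26.8 CPM in the Rb-null libraries. The groups did not overlap, and the log2 fold change was -0.34 ± 0.11 (adjusted p = 0.220, edgeR's quasi-likelihood test). Unc5d, which also binds the adhesion protein Flrt2, had 24.4, 27.6, 17.4 and 15.1 CPM against 26.4, 26.0, 38.2 and 27.0 CPM (-0.48 ± 0.21, adjusted p = 0.310). Rb-null 3 was far above the other Rb-null libraries, and TET-MYCN 2 lay among them. Unc5a and Unc5c had log2 fold changes of 0.21 ± 0.17 and 0.26 ± 0.15. Dcc, the attractive netrin receptor, had 64.5, 73.1, 43.0 and 71.7 CPM against 60.4, 55.1, 42.4 and 38.7 CPM (0.36 ± 0.19, adjusted p = 0.392).

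Their ligands were few. Ntn1, the netrin of the optic disc, had 0.988, 0.778, 0.618 and 1.36 CPM in the TET-MYCN libraries, against 0.712, 0.668, 0.458 and 0.605 CPM in the Rb-null libraries (0.60 ± 0.32, adjusted p = 0.384). Its counts were 16, 18, 11 and 27 in TET-MYCN and 14, 11, 7 and 9 in Rb-null libraries, and without TET-MYCN 3 its log2 fold change was 0.75 ± 0.31 (adjusted p = 0.187). Ntn3 had 9.57, 9.64, 6.57 and 11.4 CPM against 7.43, 10.02, 7.93 and 7.87 CPM (0.16 ± 0.19, adjusted p = 0.730), and Ntn4 had 21.8 ± 8.83 against 18.4 ± 4.63 CPM.

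**Figure D4:**
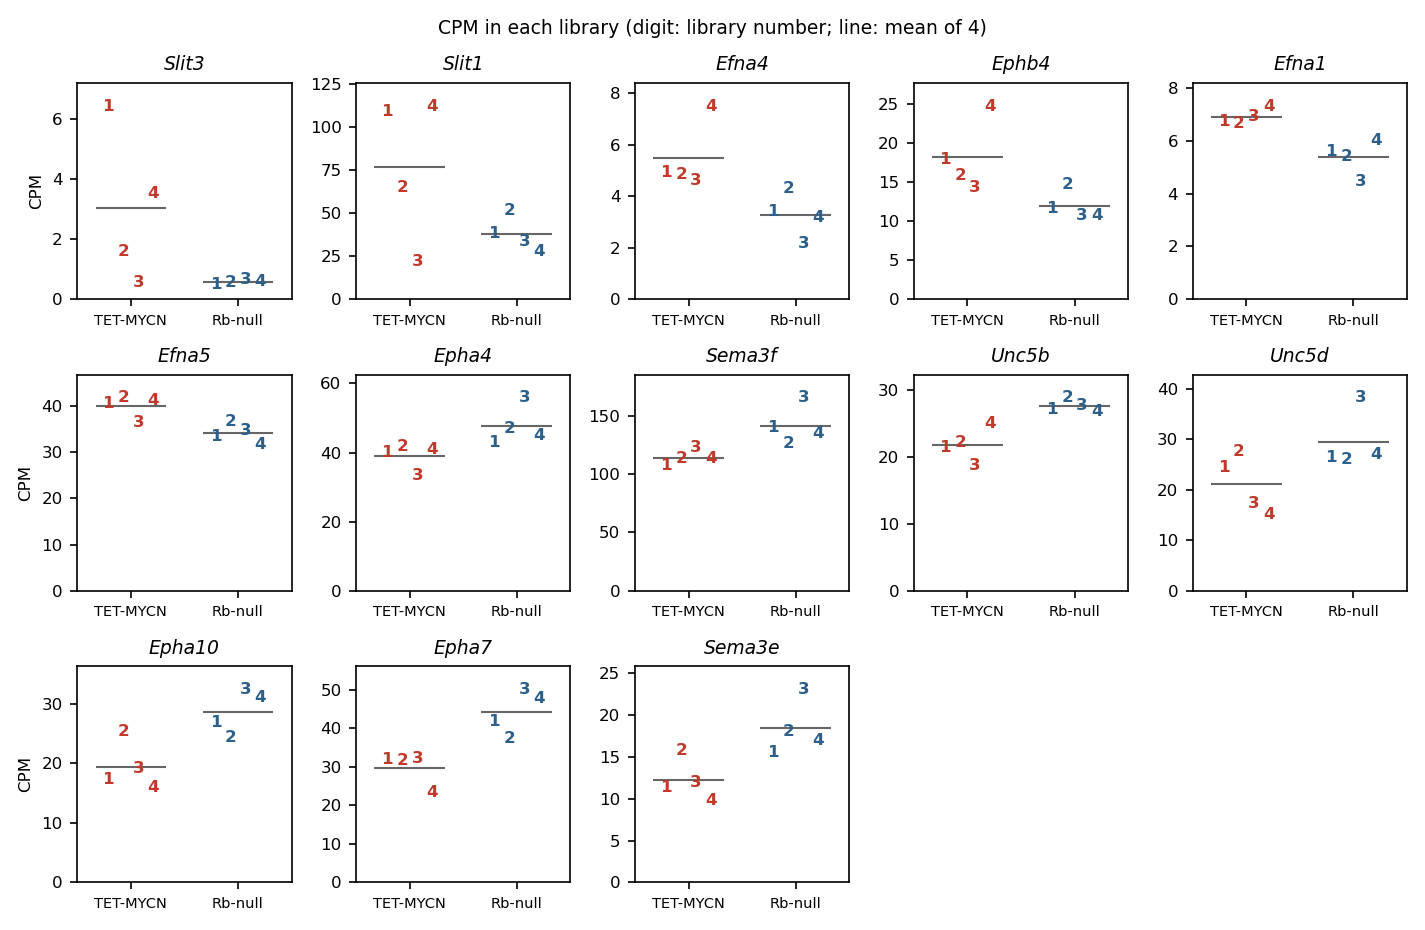
CPM in each library (vertical axis, from 0) of the 13 guidance genes with an unadjusted p under 0.05, TET-MYCN left in red and Rb-null right in blue. Digits are library numbers and lines the means of 4. Efna4, Efna1, Epha4, Sema3f, Unc5b and Epha7 have groups that do not overlap, and library 3 is the lowest TET-MYCN library of Slit3 and Slit1.

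Leaving out TET-MYCN 3 moved the count of guidance genes that stood higher more than any other single library did. Without it 22 of the 64 (34.4%) had a positive log2 fold change at an unadjusted p under 0.05, against 13.1% of all genes in that fit, and 6 (9.38%) a negative one, against 10.9%. By family, the 22 higher genes held 4 of the 5 EphB receptors, 3 of the 5 A ephrins, 4 semaphorins and 2 plexins. They also held Slit1, Slit3, Dcc with Unc5a and Unc5c, Efnb2, Robo2 and Ntn1. The 6 lower genes were 3 semaphorins, 2 EphA receptors and Unc5b. The EphA receptor Epha3 was also among the higher genes, at 0.71 ± 0.17 (adjusted p = 0.0701, edgeR's quasi-likelihood test). In a further fit, one added once the data had been seen, the relation of each library's levels to exon length was removed and all 8 libraries were kept. There 11 of the 64 genes (17.2%) were higher at an unadjusted p under 0.05, against 9.84% of all genes, 8 (12.5%) were lower, against 8.54%, and 0 passed the adjusted threshold, where 0.0879% of all genes did. All 13 genes named above for an unadjusted p under 0.05 were again under it in that fit, and 11 of them were without TET-MYCN 3.

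A list of 48 other guidance genes (co-receptors, adhesion molecules and intracellular effectors) was read beside the 67. Of 47 tested, 0 passed the adjusted threshold, 4 were higher and 7 lower in TET-MYCN retina at an unadjusted p under 0.05 (8.51% and 14.9%, against 8.06% and 7.72% of all genes), and the median log2 fold change was 0.04. Ntng2, a netrin-G that acts in synapse adhesion rather than through Dcc, had 52.5 ± 3.95 CPM in TET-MYCN and 72.5 ± 8.19 CPM in Rb-null retina (-0.47 ± 0.11, adjusted p = 0.157, edgeR's quasi-likelihood test). Ntng1 had 16.0 ± 2.36 and 25.8 ± 7.96 CPM (-0.68 ± 0.22, adjusted p = 0.207). Ablim1, an actin-binding protein, had 77.8 ± 17.9 and 126 ± 23.4 CPM (-0.69 ± 0.19, adjusted p = 0.170). Gap43, a growth cone protein, had 119 ± 27.6 CPM in TET-MYCN and 82.2 ± 5.44 CPM in Rb-null retina (0.53 ± 0.15, adjusted p = 0.184). Named for their roles and not by their p-values, the neuropilins Nrp1 and Nrp2, co-receptors of class 3 semaphorins, had log2 fold changes of 0.34 ± 0.16 and 0.15 ± 0.19, and Neo1, the neogenin receptor, one of -0.07 ± 0.14.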

How the data were processed

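The authors deposited 1 table of raw counts, whole numbers by gene symbol, per library. The submitters' processing notes name HTSeq 0.5.4p3, TopHat2 2.0.8b, CASAVA 1.8.2 and build mm9. The sources used here do not state options, annotation or strand use. Lines for reads not assigned to 1 gene (28.3% to 31.7% of reads) were left out. Counts were scaled by TMM, and filterByExpr kept 15106 genes. Groups were compared by robust quasi-likelihood F tests in edgeR 4.0.16 (R 4.3.3) on the 8 libraries with no covariate, with Benjamini-Hochberg adjustment over all genes tested at 0.05. Log2 fold changes above 0 mark genes higher in TET-MYCN; ± is the standard error (the log2 fold change over the square root of F), and after CPM the SD over 4 libraries. Exon lengths are of GENCODE M21 (GRCm38), another build, so only promoter coordinates of RefSeq are given. A count of 3 equals 0.130 to 0.202 CPM, and covers counting error only.

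Genes and lists were chosen with earlier results of these data known. Each library's CPM and full statistics are given for guidance genes with an unadjusted p under 0.05 and for the 2 smallest p-values of each family, and the highest level of each family is named; values of other members are for description. Of the other guidance and retinal position lists the 4 smallest p-values are named, except for 1 gene that is not reported here. Alternatives were DESeq2's size factors, total counts, no filter, a filter of 1 CPM in 4 libraries, DESeq2 1.42.0, limma-voom (limma 3.58.1), edgeR's newer quasi-likelihood method, the replicate number as a block, each library left out, and Rb-null 2 and 3 left out. A correction for exon length (loess of log2 CPM, span 0.5, on 13650 genes with a length) was added after seeing the data. The tests were tested on simulated data. Figures were drawn with matplotlib 3.10.9.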

Additional observations from a re-analysis of the deposited data

Results flagged for a closer look

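In groups of 4 libraries, a library was set apart when its gap to the nearest other one exceeded Dixon's 95% critical share of the group's range, which chance gives in about 1 of 20 groups. Among the 44 groups of the 22 guidance genes that the rule for full statistics selects, 3 met this. Efna4 stood at 7.499 CPM in TET-MYCN 4, and the next value of its group was 4.94 CPM. Epha7 stood at 23.4 CPM in TET-MYCN 4, under the next value of 31.7 CPM. Unc5d stood at 38.2 CPM in Rb-null 3, above the next value of 27.0 CPM.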

How the results depend on the processing

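No log2 fold change of the 22 guidance genes that the rule for full statistics selects changed sign under any of the 18 alternatives that gave it a value. Epha8, outside the 22, changed sign in 3 of the fits without 1 library (-0.08 to 0.27), and 50 of the 64 tested genes kept their sign without any 1 library. With 9 genes called in all, the count was 17 with no filter, 530 with DESeq2, 0 with limma-voom (2262 genes had an unadjusted p under 0.05), 3 with the replicate block and 0 without Rb-null 2 and 3 together (1307 at an unadjusted p), and 0 to 230 without 1 library each, at 230 without TET-MYCN 3, 132 without TET-MYCN 2, 1 without Rb-null 1 and 0 without each of the other 5 (1391 to 2739 genes at an unadjusted p). Guidance genes called higher were 1 with DESeq2 and 0 to 2 without 1 library each, and called lower 1 with DESeq2 and 0 without any 1 library. At an unadjusted p under 0.05, 6 guidance genes were higher, against 8.06% of all genes tested. They were 11 after the exon length correction (chosen after seeing the data), against 9.84%. Without 1 library each they were 3 to 22, against 5.22% to 13.1% of all genes. The count was 3 without TET-MYCN 1, TET-MYCN 4 or Rb-null 3, against 5.77%, 5.89% and 5.22% of all genes. The 7 lower stood against 7.72% of all genes. They were 2 without Rb-null 2 and 3 together, against 4.29%. Without 1 library each they were 6 to 9, against 3.89% to 10.9%. The cause was not tested. Family medians moved by less than the spread between libraries under all 18. Signs changed under 4 alternatives for the semaphorins (-0.05 to 0.04), 4 for the plexins (-0.12 to 0.10) and 1 for the Robo receptors (-0.03 to 0.25). The Slits' median lay between 0.36 and 1.33. Its low end came from the filter of 1 CPM in 4 libraries, which dropped Slit3 from the family. The log2 fold change of Slit1 itself was at least 0.79 under every alternative. Same-numbered libraries correlated by -0.04, -0.06, -0.12 and -0.29 in their deviations. These values show no sign that the numbers pair libraries, but cannot exclude it. With the replicate block 0 guidance genes passed. Ntn5, at 0 to 14 counts a library, was not tested.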

Other observations

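The transcription factors and signals that set up position in the retina, and with it the ephrin gradients, were read as a list of 12 genes (dorsal, ventral, nasal and temporal). All 12 were tested, 0 passed the adjusted threshold (edgeR's quasi-likelihood test), and 4 were higher and 0 lower in TET-MYCN retina at an unadjusted p under 0.05. These were 33.3% and 0%, against 8.06% and 7.72% of all genes tested, and the median log2 fold change was 0.27, against 0.01 over all genes. Bmp4, the dorsal signal, had 7.29, 1.30, 2.92 and 8.25 CPM in the TET-MYCN libraries, against 0.763, 0.668, 0.589 and 0.471 CPM in the Rb-null libraries (2.95 ± 0.57, adjusted p = 0.129). Vax1, a ventral and optic stalk factor, had 1.98, 1.47, 1.24 and 4.18 CPM against 0.509, 0.911, 0.458 and 0.404 CPM (1.94 ± 0.45, adjusted p = 0.158). For both genes the groups did not overlap.

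Bmpr1b, a receptor counted with the ventral genes, had 30.5 ± 8.52 CPM in TET-MYCN and 17.9 ± 5.01 CPM in Rb-null retina (0.77 ± 0.25, adjusted p = 0.208). The dorsal factor Tbx5 had 7.94 ± 3.63 and 5.76 ± 2.52 CPM, the ventral factor Vax2 25.9 ± 7.14 and 28.4 ± 7.97 CPM, and the temporal factor Foxd1 2.15 ± 0.715 and 2.58 ± 1.27 CPM, named for their roles. Bmp4 was highest in TET-MYCN 1 and 4, where the ciliary margin markers were also highest.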
